A study of Homo sapiens with 6 samples.

Results

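The mRNAs described here are 10 transcripts known to leave the nucleus with the cap-binding protein eIF4E, measured in extracellular vesicles (EVs) released by T cells with and without CD47. They were chosen by name and encode ODC1, MYC, MCL1, BCL2, BCL6, MDM2, NBN, NAMPT, CCNE1 and CD44. All 10 were measured, among 18417 genes in all, by 11 probe sets that the array annotation pairs with exactly 1 gene symbol.

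Most mRNAs leave the nucleus through the general mRNA export receptor. A smaller set, many of them coding for proteins of growth, survival and cell division, can instead leave through exportin-1 (CRM1, encoded by XPO1). In that route nuclear eIF4E holds the m7G cap, the protein LRPPRC joins it to a structured element in the 3' part of the mRNA and to exportin-1, and Ran drives release in the cytoplasm. The study asked whether CD47 limits the delivery of capped RNAs of this pathway into EVs.

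EVs came from WT Jurkat cells, which are leukemic human T cells grown as a line, and from JinB8, a somatic mutant of Jurkat that lacks CD47. Each group holds 3 EV preparations, called cell culture replicates by the submitters. The labels do not say whether these came from separately grown cultures, so p values measure only the spread between preparations, which may be technical. All preparations came from cells kept for 24 to 48 h in serum-free HITES medium, and 300 ng of total RNA was labeled for each Affymetrix human gene array. JinB8 is a single mutant line, so an effect of CD47 and an effect of other mutations in that line cannot be told apart. The labels name 2 isolation kits, Exo-quick and Exo-spin, without tying either to a preparation.

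The deposited values are log2 values from RMA, a method that subtracts background, equalizes the distributions of the arrays and summarizes the probes for 1 target into 1 value. They give relative levels within EV RNA. More vesicles that carry an mRNA and more copies in each vesicle cannot be told apart. Array medians lay between 5.08 and 5.14, and the correlation between any pair of arrays was 0.981 to 0.989. Of the T cell markers, 7 of 11 had a mean above the median of the olfactory receptor genes, against 4 of 13 markers of other cell types. Above the olfactory receptor 95th percentile were 2 of the 11, CD7 and LCK, and 1 of the 13, the fibroblast collagen COL1A1. The T cell markers ranged widely, from PTPRC, above 10.3% of olfactory receptor genes, to CD7, above 99.4%, with the CD3 chains at 92.1% (CD3D), 82.7% (CD3E), 78.9% (CD3G) and 51.3% (CD247). CD47 itself was at 4.72, 4.69 and 4.72 in WT EVs and at 4.58, 4.67 and 4.94 in CD47- EVs, above 24.0% of olfactory receptor genes by its mean. The groups overlapped (difference 0.02), so this near-background signal does not check the labels.

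Levels of the export targets were set against the 341 olfactory receptor genes, a family of the nose that is normally silent in T cells, because no detection calls accompany the values. The olfactory receptor genes had a median of 5.49 and a 95th percentile of 6.79. None of the 10 export targets had a mean above that 95th percentile, which 4.69% of all genes exceeded. Above the olfactory receptor median lay 3 of the 10, BCL2, ODC1 and CCNE1, against 39.4% of all genes. BCL2 stood above 67.2%, ODC1 above 65.4% and CCNE1 above 55.7% of the olfactory receptor genes. CD44 followed at 48.1%. MYC and NAMPT each lay above 32.6%. The dimmest were MCL1 (18.5%), BCL6 (17.0%), MDM2 (16.1%) and NBN (14.4%). On this gauge the signal of each export target fell in the range of genes that should be silent in these cells. The gauge is rough, since probe sets differ in how strongly they bind, so the order is one of signal over background and not of abundance.

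**Figure D1:**
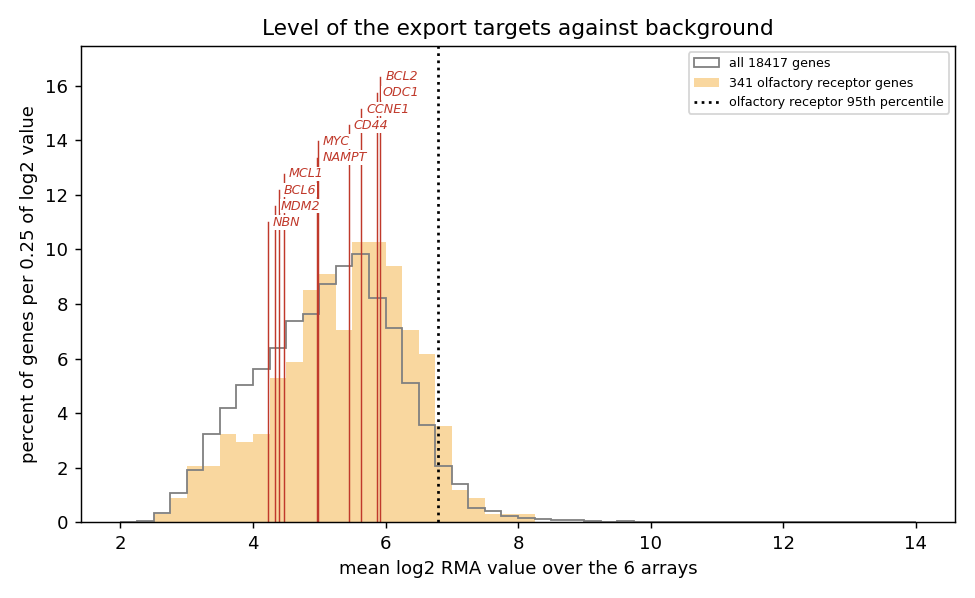
Distribution of gene means on the log2 RMA scale, taken over the 6 arrays, for all 18417 genes (grey outline) and 341 olfactory receptor genes (orange), as percent of genes in each bin, with the 10 export targets as red lines. Every red line lies to the left of the dotted 95th percentile of the olfactory receptor genes at 6.79, and 3 of them lie to the right of the median at 5.49.

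In CD47- EVs compared with WT EVs, none of the 10 export targets was called higher or lower (limma, adjusted p under 0.05 with adjustment over all genes). The share called among all genes was 0.684%, among genes above the olfactory receptor 95th percentile 6.94%, and among genes at or below it, where all 10 lie, 0.376%. A count of 0 among 10 is near that background and is not a result about these mRNAs. At an unadjusted p under 0.05 there was 1, ODC1, where 8.03% of all genes stood. Differences were above 0 for 5 of the 10 and below 0 for the other 5, with a median of 0.0027 beside 0.0029 over all genes. On the log2 scale the differences ran from -0.15 for BCL6 to 0.36 for ODC1.

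**Figure D2:**
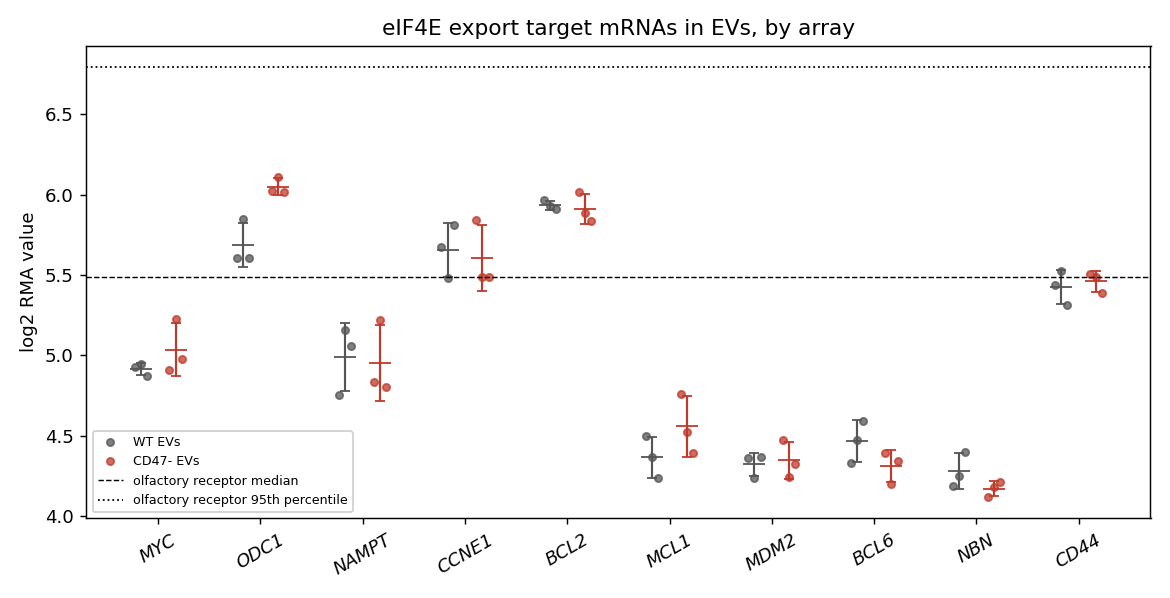
log2 RMA value of the 10 export targets in each of the 3 WT (grey) and 3 CD47- (red) EV arrays, with the mean and SD of each group as bars. Only ODC1 has groups that do not overlap, and all points lie below the dotted olfactory receptor 95th percentile of 6.79.

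Among the genes of growth and metabolism, MYC encodes a transcription factor that drives ribosome production, metabolism and cell division. Its log2 values in WT EVs were 4.93, 4.95 and 4.87 for replicates 1 to 3, and in CD47- EVs 4.91, 5.22 and 4.97. CD47- replicate 2 was the highest array, while CD47- replicate 1 lay within the WT range. The difference was 0.12 (95% interval -0.08 to 0.31, adjusted p = 0.842 from limma), and without CD47- replicate 2 it was 0.03. Of 8 measured partners and antagonists in the MYC network, 0 passed with limma, also at an unadjusted p under 0.05. MNT, a repressor that competes with MYC for MAX, had a difference of 0.17, and MGA, another MAX partner, of -0.11.

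ODC1 encodes ornithine decarboxylase, the first enzyme of polyamine synthesis and a known target gene of MYC. Its log2 values were 5.61, 5.85 and 5.61 in WT EVs and 6.02, 6.11 and 6.01 in CD47- EVs. Each CD47- array lay above each WT array, a separation upward that 7.3% of all genes showed and 1 of the 10 export targets. The WT mean was 5.69 ± 0.14 (SD, n = 3) and the CD47- mean 6.05 ± 0.05 (SD, n = 3), which is a 1.29-fold difference with a 95% interval from 1.13 to 1.46. It did not pass over all genes (log2 difference 0.36, standard error 0.09, adjusted p = 0.0999 from limma), and ODC1 ranked 204 of 18417 genes by its p. An exact two-sided permutation test over the arrays gave p = 0.1, the smallest that 3 against 3 allows. ODC1 passed as higher when each array was centered on its olfactory receptor genes (0.42, adjusted p = 0.0326) and when only genes above the olfactory receptor median were tested (adjusted p = 0.0394). Neither setting is particular to ODC1. The centering raised the median difference over all genes from 0.0029 to 0.062 and the number of genes called from 126 to 240. The filter kept 7249 genes, of which 158 were called. Over the alternatives the adjusted p of ODC1 ranged from 0.0326 to 0.341 (limma). Of the 11 T cell markers, 4 also separated upward, CD3D (0.28), CD3E (0.37), CD3G (0.34) and PTPRC (0.15), and none passed. The other 7 overlapped, with CD247 at -0.04 and CD28 at -0.02. The summed unlogged level of the 11 T cell markers also separated, from 755 to 847 in WT EVs and 866 to 886 in CD47- EVs. That of the 13 markers of other cell types ran from 557 to 593 and from 539 to 582. Their part in the ODC1 difference was not tested.

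The promoter of ODC1 is shown because ODC1 had the largest difference and because MYC, another of the 10 genes, binds with MAX to the E-box CACGTG. The E-box is the same on both strands and was sought in the 250 bases before each gene start of the RefSeq promoters (GRCh38.p14). It was present before a start of ODC1 and of none of BCL2, BCL6, MDM2, NAMPT, CCNE1 and CD44, the other genes searched, so 1 gene of 7, where 7.73% of all genes with an entry held it. The 100 bases before that ODC1 start lie at chr2:10448013-10448112 on the minus strand. They are given 5' to 3' with the E-box in capitals, and the motif begins 29 bases before the start:
ODC1 promoter: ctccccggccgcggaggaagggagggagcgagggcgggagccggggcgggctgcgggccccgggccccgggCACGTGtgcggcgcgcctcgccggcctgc
A match describes these letters and is not evidence of binding. The other start of ODC1 in the same table had no match in its 250 bases.

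The remaining polyamine genes put ODC1 among its partners, and OAZ1 was the 1 of 11 that passed, with 0 lower. Of all genes, 0.684% passed. OAZ1 encodes antizyme, the inhibitor that binds ODC1 protein and directs it to the proteasome. Its log2 values were 6.32, 6.12 and 6.17 in WT EVs and 7.03, 7.29 and 7.48 in CD47- EVs. The lowest CD47- array lay well above the highest WT array. With a mean above 93.3% of olfactory receptor genes, OAZ1 stood just below their 95th percentile. Above that percentile 6.94% of genes passed, and at or below it 0.376%. OAZ1 was 2.09-fold higher (95% interval 1.78 to 2.47, log2 difference 1.07, adjusted p = 4.53e-04 from limma), and it passed in all alternatives, with adjusted p from 3.75e-06 to 0.00758.

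SRM and SMS, chosen after their values were seen, encode spermidine synthase and spermine synthase, which use the product of ODC1 in turn. SRM was at 7.19, 7.02 and 6.86 in WT EVs and at 7.48, 7.38 and 7.26 in CD47- EVs. SMS was at 6.95, 6.94 and 6.96 in WT EVs and at 6.77, 6.75 and 6.69 in CD47- EVs. Neither pair of groups overlapped, and the synthases lay in opposite directions. Differences were 0.35 for SRM (adjusted p = 0.196 from limma) and -0.21 for SMS (adjusted p = 0.347), so neither passed. Downward separation of this kind was seen for 5.53% of all genes. Both genes had means above the olfactory receptor 95th percentile. The median difference of the 11 polyamine genes was 0.05, beside 0.0029 over all genes.

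**Figure D3:**
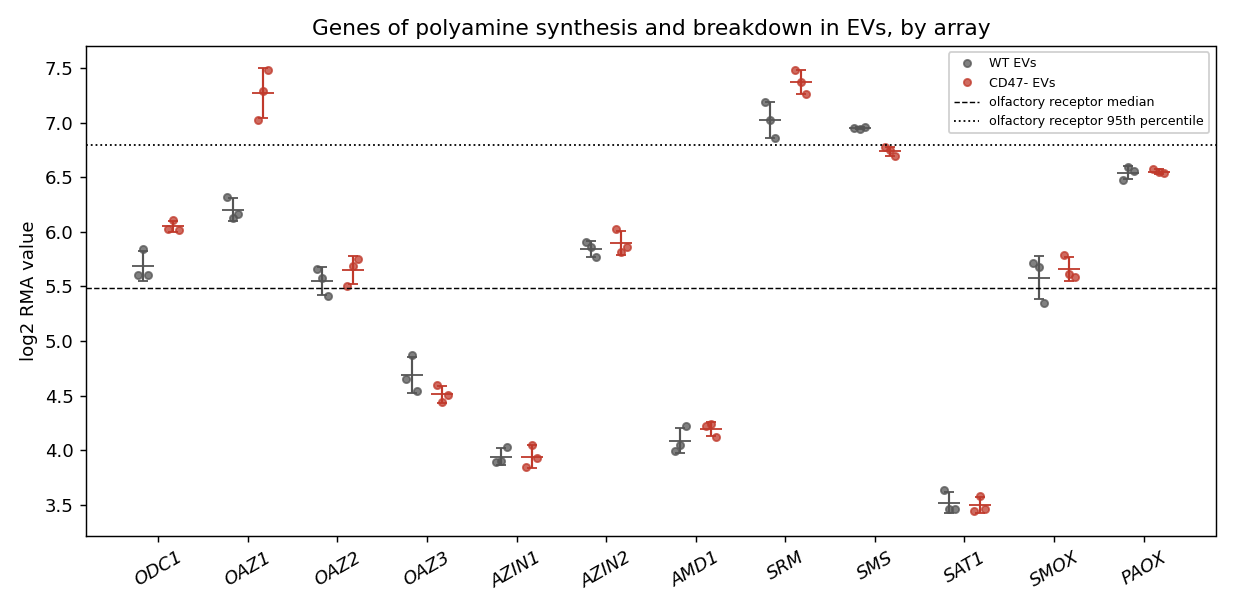
log2 RMA value of ODC1 and 11 genes of polyamine synthesis, control and breakdown in each WT (grey) and CD47- (red) EV array, with the mean and SD of each group as bars. OAZ1 shows the widest gap, with WT arrays from 6.12 to 6.32 and CD47- arrays from 7.03 to 7.48, while SMS lies lower in each CD47- array.

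NAMPT, the rate-limiting enzyme of NAD salvage, was measured by 2 probe sets, and NAMPT has a pseudogene copy whose sequence probes can share. The annotation does not settle which of the 2 reports NAMPT and which may report the pseudogene. The NAMPT level and bounds given elsewhere are those of the brighter probe set. The brighter probe set gave 4.75, 5.16 and 5.06 in WT EVs and 4.83, 5.22 and 4.80 in CD47- EVs. The dimmer gave 4.42, 4.72 and 4.73 in WT EVs and 4.50, 4.64 and 4.45 in CD47- EVs. In both probe sets the groups overlapped. The differences were -0.04 (95% interval -0.31 to 0.23, adjusted p = 0.980 from limma) and -0.09 (95% interval -0.30 to 0.12, every probe set tested on its own). Of the 7 measured genes around NAMPT in NAD synthesis, 0 passed, also at an unadjusted p under 0.05. The smallest p values belonged to NADSYN1, which makes NAD in the last step of another route, with 0.15, and NMNAT3, which makes NAD from the product of NAMPT, with -0.07.

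Cyclin E, the product of CCNE1, activates CDK2 at the entry to S phase. CCNE1 stood at 5.67, 5.48 and 5.81 in WT EVs and at 5.84, 5.49 and 5.48 in CD47- EVs. The highest single array was CD47- replicate 1 and the lowest WT replicate 2, so the groups overlapped over nearly their whole ranges. Its difference was -0.05 (95% interval -0.29 to 0.19, adjusted p = 0.970 from limma). None of 6 measured genes of the cyclin E and CDK2 circuit passed with limma, and at an unadjusted p under 0.05 there was 1 in each direction. These were CDK2 itself (0.17) and FBXW7 (-0.19), the ubiquitin ligase subunit that marks cyclin E for destruction.

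BCL2 and MCL1 encode proteins that keep mitochondria from releasing cytochrome c and so protect cells from apoptosis. BCL2 was the brightest of the 10 and the steadiest in WT EVs, at 5.97, 5.93 and 5.91, with 6.02, 5.88 and 5.84 in CD47- EVs. The WT values lay inside the CD47- range. Its difference was -0.02 (95% interval -0.19 to 0.15, adjusted p = 0.981 from limma), the smallest of the 10 in size.

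MCL1, a short-lived relative of BCL2, was at 4.49, 4.36 and 4.24 in WT EVs and at 4.76, 4.52 and 4.39 in CD47- EVs. The upper 2 CD47- arrays exceeded each WT array and the third did not. MCL1 had the largest difference after ODC1, 0.19 (95% interval -0.03 to 0.41, adjusted p = 0.719 from limma), and without CD47- replicate 1 it was 0.090. The groups of both BCL2 and MCL1 overlapped. Of 12 measured BCL2 relatives, 0 passed with limma and 1 was lower at an unadjusted p under 0.05. This was the proapoptotic BIK (-0.25), and PMAIP1 (NOXA), which binds MCL1, had a difference of 0.17.

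MDM2 encodes the ubiquitin ligase that keeps p53 low. It was at 4.36, 4.24 and 4.37 in WT EVs and at 4.47, 4.24 and 4.32 in CD47- EVs, with overlap. The difference was 0.03 (95% interval -0.15 to 0.21, adjusted p = 0.980 from limma). Where 0.684% of all genes passed, 1 of 5 measured partners was higher and 0 lower. It was RPL5, a ribosomal protein that binds MDM2 when ribosome assembly is disturbed, which rose from 8.83 ± 0.12 (SD, n = 3) to 9.47 ± 0.10 (SD, n = 3), a log2 difference of 0.64 (adjusted p = 0.00387 from limma). RPL5 is an abundant mRNA with pseudogene copies, and all 3 of its probe sets passed when each was tested by itself. Its mean lay above the olfactory receptor 95th percentile, where 6.94% of genes passed. After a further quantile normalization its difference was 0.37 and it did not pass (adjusted p = 0.0538, with 3.14e-04 to 0.0538 over the alternatives).

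BCL6 encodes a transcriptional repressor of germinal center B cells and follicular helper T cells. In WT EVs it was at 4.33, 4.47 and 4.59 and in CD47- EVs at 4.39, 4.20 and 4.34. Its CD47- arrays tended to lie lower, with the CD47- maximum above the WT minimum. The difference was -0.15 (95% interval -0.35 to 0.04, adjusted p = 0.743 from limma), and it was -0.092 without WT replicate 3 and -0.099 without CD47- replicate 2. Its 4 measured corepressors and antagonists had differences from 0.0041 to 0.13 and none passed with limma, nor at an unadjusted p under 0.05. BCOR, a corepressor bound by BCL6, had 0.13 and PRDM1 (BLIMP1), which opposes BCL6, had 0.07.

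NBN encodes nibrin, the subunit that brings the MRE11 and RAD50 nuclease complex to double-strand breaks and ATM. It was the dimmest of the 10, at 4.18, 4.25 and 4.40 in WT EVs and 4.12, 4.18 and 4.21 in CD47- EVs. The groups overlapped by a small margin. NBN had a difference of -0.11 (95% interval -0.28 to 0.07, adjusted p = 0.838 from limma), and -0.048 without WT replicate 3. All 4 of its measured partners lay below the olfactory receptor median, and 0 passed with limma or at an unadjusted p under 0.05. RAD50 had a difference of 0.11, which was 0.0034 without CD47- replicate 2, and ATM of 0.03.

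CD44 encodes the hyaluronan receptor, an adhesion molecule of activated T cells. It was at 5.44, 5.52 and 5.31 in WT EVs and at 5.51, 5.49 and 5.39 in CD47- EVs. The CD47- values lay inside the WT range. The difference was 0.03 (95% interval -0.14 to 0.21, adjusted p = 0.974 from limma). Of 5 measured genes of hyaluronan and of the CD44 anchor, 0 passed with limma and 1 was lower at an unadjusted p under 0.05. It was HAS2, a hyaluronan synthase (-0.20). MSN, which encodes moesin, the link from CD44 to actin, had a difference of 0.21.

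These arrays bound the differences. Standard errors ran from 0.08 to 0.13 on the log2 scale, and all 10 of the 95% intervals lay within a 1.5-fold difference in either direction. The farthest bounds were 1.46-fold for ODC1 upward and 0.786-fold for BCL6 downward. The intervals are not adjusted for the number of genes and hold for the measured signal. For a probe set near background, a change in the mRNA can be larger than the change in its signal. To reach the largest p that passed over all genes, the difference had to be between 0.38 for BCL2 and 0.62 for NAMPT. ODC1 needed 0.42.

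**Figure D4:**
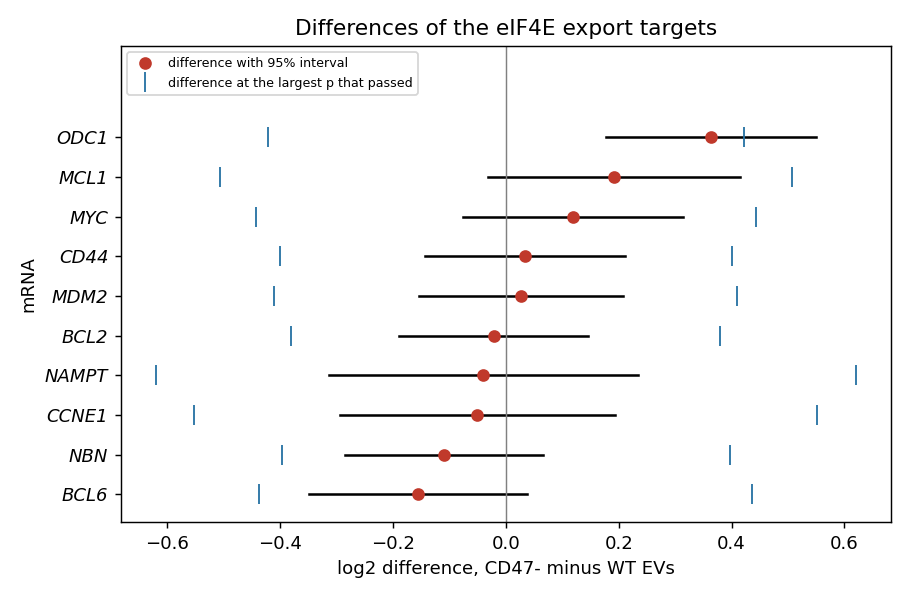
log2 difference between CD47- and WT EVs for each of the 10 export targets (red points) with its 95% interval from limma (black lines), and the size each would have needed to reach the largest p that passed over all genes (blue ticks). The ODC1 interval alone lies above 0, and its point at 0.36 falls short of its tick at 0.42.

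Other mRNAs described as leaving with eIF4E were also measured. Of 10 measured, 0 passed with limma, where 0.684% of all genes did. A count of 0 is near that share and is not a result about these mRNAs. At an unadjusted p under 0.05, 2 were higher, as were 950 of all 18417 genes. The median difference was 0.0077. NONO, a nuclear RNA-binding protein of paraspeckles, was at 5.21, 4.97 and 4.77 in WT EVs and at 5.49, 5.46 and 5.92 in CD47- EVs. Its groups did not overlap, and the difference of 0.64 was wider than that of any of the 10 main mRNAs (95% interval 0.35 to 0.93, adjusted p = 0.0533 from limma). NONO passed after the olfactory receptor centering, with a variance that follows intensity and without WT replicate 1, with adjusted p from 0.00461 to 0.266 over the alternatives. CCNA2, which encodes cyclin A2, had a difference of 0.24 and its groups overlapped (adjusted p = 0.464). The other 8 had differences from -0.16 to 0.18. Of these, 1 separated downward, SELENOS (-0.16), as did 5.53% of all genes.

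The export machinery and its regulators were also measured in these EVs. Of 12 genes, 0 passed with limma and none had an unadjusted p under 0.05, where 0.684% and 8.03% of all genes did. Neither count of 0 is a result about the machinery. The median difference was 0.02. Groups did not overlap for 1 of the 12, RANBP1, which was higher by 0.08, where 7.3% of all genes separated upward. Its mean lay above 32.0% of olfactory receptor genes. The smallest p values were those of EIF4EBP2, an inhibitor that competes for eIF4E (0.19), and RANBP2, the nucleoporin at the cytoplasmic face of the pore (-0.21). They were 0.095 without WT replicate 2 and -0.081 without CD47- replicate 3, respectively. The 3 core factors of the route are named here for their role and were added after their values were seen. EIF4E was at 4.20, 4.30 and 4.06 in WT EVs and at 4.20, 4.27 and 3.76 in CD47- EVs, a difference of -0.11 with CD47- replicate 3 the lowest array. LRPPRC had a difference of 0.0019 and XPO1 of 0.05, and the groups of all 3 overlapped. Their means lay above 12.9%, 9.97% and 21.4% of the olfactory receptor genes, for EIF4E, LRPPRC and XPO1.

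Of 5 mRNAs known to be cap-dependent, whose levels the study also followed by PCR in cells, cell fractions or EVs, 1 was higher here. It was EEF1A1, an elongation factor with pseudogene copies and a difference of 0.89 (0.46 after a further quantile normalization, where it also passed). That list was chosen in the study itself, so it is not independent evidence of a direction. By PCR in EVs, the study reported EEF1A1 and ETS1 higher without CD47. It reported YOD1 as undetectable in EVs by PCR and as not found in its earlier EV arrays. CUL7 and XPO1 were followed there in nuclear and cytosolic RNA, not in EVs. ETS1, a lymphocyte transcription factor, lay between 5.54 and 5.59 in WT EVs and between 5.80 and 5.93 in CD47- EVs, a difference of 0.29 (adjusted p = 0.135 from limma). YOD1, a deubiquitinase, lay between 5.78 and 6.02 in WT EVs and between 5.53 and 5.76 in CD47- EVs, a difference of -0.18 (adjusted p = 0.718). Both separated without passing, in opposite directions, while CUL7 (0.13) and XPO1 overlapped. Of all genes, 7.3% separated upward and 5.53% downward. ETS1 had a mean above 58.7% and YOD1 above 61.0% of olfactory receptor genes, so both signals lay in the background range. Over all 6 arrays EEF1A1 and RPL5 had means of 9.89 and 9.15, above each olfactory receptor gene, where none of the 10 export targets lay. Over all the partner genes of the 10, with these 5 mRNAs, 3 of 67 were higher and 0 lower, where 0.684% of all genes were called. Among genes above the olfactory receptor 95th percentile, where EEF1A1 and RPL5 lay, the share was 6.94%. The lists were chosen with earlier results of these data known, so the count is not a result about partner genes.

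**Figure D5:**
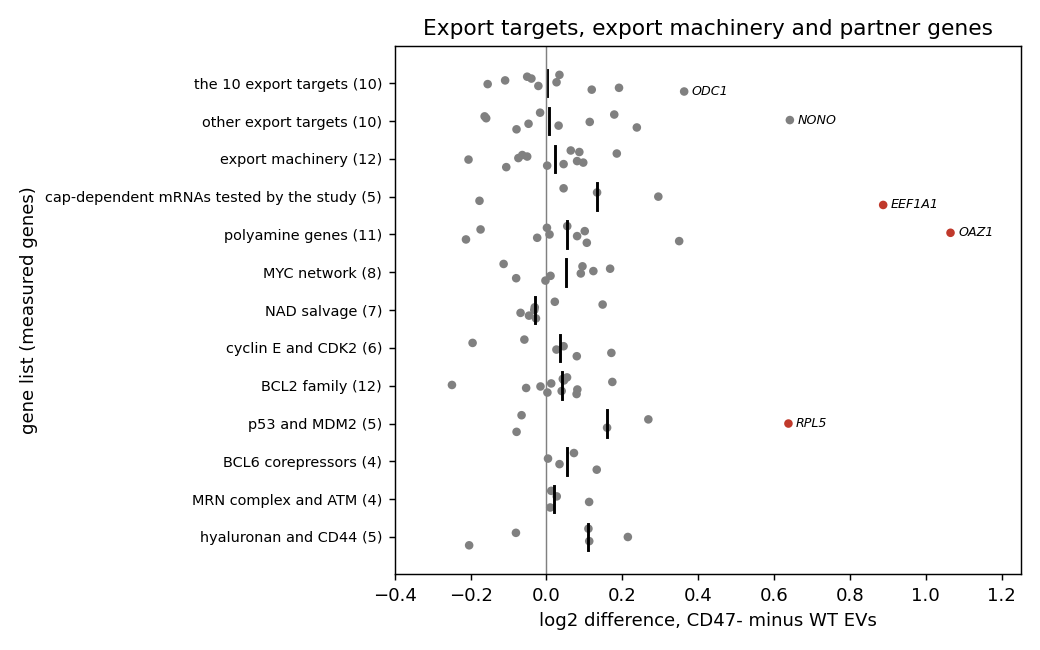
log2 difference between CD47- and WT EVs of each measured gene in the 10 export targets, other export targets, export machinery and partner lists, with list medians as black bars and genes that passed in red. OAZ1, EEF1A1 and RPL5 are the red points, and ODC1 and NONO stand to the right of the other grey points in their lists.

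Across the 6 arrays, the genes whose pattern was most like that of ODC1 were MEST, TUBA1C and SOX21, with Pearson r of 0.997, 0.996 and 0.994. With 6 arrays, 52 genes had r over 0.95, so this is a description only. Their differences were 0.09, 0.33 and 0.26 on the log2 scale, and their means lay above 39.3%, 34.0% and 48.1% of the olfactory receptor genes.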

How the data were processed

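RNA of EVs from WT Jurkat and CD47- JinB8 cells was measured on 6 Affymetrix human gene arrays, 3 for each group, and samples were grouped by their titles. The table deposited by the authors holds log2 values, already normalized by RMA. The submitters' processing notes name Expression Console of Affymetrix as the tool, with no version known here. The arrays, not a read depth, limit the precision.

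Of 33297 probe sets, 19460 had 1 symbol in the platform annotation and gave 18417 genes, each taken from its brightest probe set. Groups were compared with limma 3.58.1 in R 4.3.3 (lmFit and eBayes, Benjamini-Hochberg over all genes, adjusted p under 0.05, no filter on dim genes), and the step was tested on simulated data. Intervals are 95% intervals from the same fit. The named genes are the 10 export targets, the genes that passed in each list or else the 2 with the smallest p, and the 3 genes most like ODC1. CD47, the named cell type markers, SRM, SMS, ETS1, YOD1, CUL7, EIF4E, LRPPRC, XPO1, RANBP1 and SELENOS were added after their values were seen. The mRNAs and lists were chosen with earlier results of these data known. Alternatives were a replicate block, other scalings, variance models, weights, filters and probe set rules, another threshold, and leaving out each array. The block and pairing check is given with the alternatives.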

Additional observations from a re-analysis of the deposited data

How the results depend on the processing

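The count of export targets called was 0 of 10 and became 1, ODC1, after centering on the olfactory receptor genes, among genes above the olfactory receptor median and at an adjusted p under 0.1. It was 0 in the other alternatives, each array left out included. Of the other export targets 1, NONO, was called after that centering, with an intensity trend and robust variance, at an adjusted p under 0.1 and without WT replicate 1, so leaving out 1 array gave 0 to 1. Of the export machinery 0 were called throughout. The 3 partner genes called became 6 when every probe set was counted, because RPL5 has 3 and EEF1A1 has 2 that passed. With the olfactory receptor median as the gauge, 3 export targets lay above it, and with the 95th percentile 0 did in each alternative. In 1 alternative the gauge was taste receptor and keratin-associated genes. Their 95th percentile of 8.88 was exceeded by only 31 of all genes, so a count of 0 was nearly fixed there. With the centering, the median over all genes rose to 0.062 from 0.0029.

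Several differences near 0 changed sign. After the centering, BCL2 was at 0.038, NAMPT at 0.020 and CCNE1 at 0.0087. Leaving out 1 array gave ranges of -0.074 to 0.017 for BCL2, -0.036 to 0.078 for MDM2, -0.17 to 0.044 for NAMPT, -0.17 to 0.028 for CCNE1, -0.022 to 0.084 for CD44, -0.036 to 0.064 for ATM, -0.20 to 0.053 for EIF4E and -0.042 to 0.034 for LRPPRC. Without a change of sign, leaving out 1 array also moved MYC, MCL1, BCL6, NBN, MNT, MGA, NADSYN1, NMNAT3, BIK, PMAIP1, PRDM1, RAD50, MSN, CCNA2, EIF4EBP2, RANBP2 and XPO1 by over 1.5 times, none of them past the threshold. The cause was not tested. Deviations of arrays with the same replicate number correlated with r of 0.02, -0.02 and -0.04. Those with different numbers had r from -0.04 to 0.05. No pairing by number was seen, but with 3 arrays per group a weak one could be missed. With the replicate block, 0 of the 10 export targets and 3 partner genes were called, and 109 genes in all against 126. The number of genes called over all was 240 after the centering, and as low as 54 without WT replicate 3. It was 59 when CD47- replicate 3 was left out and 79 when CD47- replicate 2 was.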
